A study of Mus musculus with 7 samples.

Results

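The tumour suppressor p53, encoded by *Trp53*, and the genes that carry out or restrain cell death downstream of it were examined in the cardiac outflow tract (OFT), the tube through which blood leaves the embryonic heart and which is later divided into the aorta and pulmonary trunk. The set was defined by gene name and holds 42 genes, all of which had a row among the 14732 genes of the expression table. By their known roles, 3 encode p53 and its regulators, 21 are p53 targets, 11 belong to the BCL2 family and 7 to the caspase machinery. RNA was sequenced from mouse OFTs dissected at embryonic day 11.5 (E11.5), with 4 pairs of OFT in a pool. There were 3 control pools, from wild-type embryos (replicates 3, 4 and 5), and 4 *Gata6STOP/+* pools (replicates 1, 3, 4 and 5), although the design text names 3 pools per genotype. *Gata6STOP/+* embryos carry 1 copy of *Gata6* that was edited by CRISPR-Cas9 to a frameshift with a premature stop. The change is in the germline, so every cell of the embryo carries it, and no Cre driver was used. Neither group received any treatment.

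In unstressed cells p53 is made continuously and destroyed continuously, because the ubiquitin ligase MDM2, itself a p53 target, marks it for degradation, and the related protein MDM4 blocks its activity. Damage or stress breaks this loop, and p53 then activates genes for cell cycle arrest, DNA repair and death. The BCL2 family decides whether mitochondria release cytochrome c: BCL2, BCL-XL and MCL1 hold the pore formers BAX and BAK1 in check, and small BH3-only proteins such as PUMA and NOXA relieve that hold. Released cytochrome c assembles with APAF1 to activate caspase-9, XIAP inhibits caspases, and DIABLO inhibits XIAP. Programmed death is part of normal remodelling of the embryonic OFT. Much of p53 control acts on the protein, which RNA levels do not show.

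Short stretches near the starts of 5 members are shown first, since they carry the closest matches to the sequence that p53 binds. The pools of both genotypes overlapped for *Cdkn1a*, *Bax* and *Gtse1* and did not for *Ccng1* and *Polk*. Promoter windows of 300 bases, from 250 before to 50 after each annotated start, were taken from RefSeq (GRCm38.p6) and searched on both strands for the p53 half-site consensus, a stretch of 10 bases. Capitals mark a full site, in which a pair of half-sites stands together with at most 1 base between them and at most 1 mismatch to the consensus. Each is printed 5′ to 3′ on the strand of its gene.
*Cdkn1a*, chr17:29090923-29090952, plus strand: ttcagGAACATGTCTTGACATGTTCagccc
*Ccng1*, chr11:40755457-40755486, minus strand: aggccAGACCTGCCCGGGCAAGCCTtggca
*Bax*, chr7:45467085-45467114, minus strand: tgacAAGCATATCCCAGGCAAGCTTtgaac
*Gtse1*, chr15:85859940-85859969, plus strand: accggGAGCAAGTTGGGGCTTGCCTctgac
*Polk*, chr13:96519393-96519422, minus strand: gcttGAACTAGCCTCAAACTTATTCtatag
The site begins 51 bases before the listed start in *Cdkn1a*, 195 in *Ccng1*, 212 in *Bax*, 1 in *Gtse1* and 231 in *Polk*. In *Polk* and *Gtse1* the RefSeq start used here lies within the gene as its GRCm38 annotation places it. Windows were found for 33 of the 42 members, and 10 of these (30.3%) held a half-site, against 9.55% of the 27025 genes with a window. A full site with at most 1 mismatch stood in 5 members (15.2%) and in 0.211% of all genes, and no member held an exact full site. By role, a half-site was found in 7 of 14 p53 targets, 2 of 3 regulators, 1 of 9 BCL2 family genes and 0 of 7 caspase machinery genes. No match was found in the windows of *Plk2* and *Diablo*, and *Pmaip1* had no window. A match describes the letters of the window only, and genes become known as p53 targets partly through such sites, so the higher share among members is no independent result.

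Levels are given as normalized read counts scaled to library size (CPM), and differences between genotypes as log2 fold changes of CPM + 0.5, *Gata6STOP/+* minus control, with the standard error (SE) and P-value of a limma fit over all genes. P-values were adjusted by Benjamini-Hochberg over the whole table. The pools are the units of replication, so P-values measure the spread between pools, and RNA from whole OFTs cannot tell fewer cells of a type from less RNA per cell. The pools held 17783655 to 29035529 reads on listed genes in controls and 24736761 to 34467710 in *Gata6STOP/+*, and a member had from 32 to 7384 reads in a pool. *Gata6* itself was 286 ± 28.9 CPM (SD, n = 3) in control and 227 ± 28.7 CPM (SD, n = 4) in *Gata6STOP/+* pools, or 79.2% of control (log2 fold change -0.34, SE 0.099, limma adjusted P = 0.389). The overlap between groups came from the library labelled *Gata6STOP/+* replicate 1, whose *Gata6* level of 268.4 CPM lay inside the control range of 257.4 to 315.3 CPM, whereas the other 3 *Gata6STOP/+* pools were at 202.8 to 218.8 CPM. This pool was kept in its labelled group. Without it the log2 fold change of *Gata6* was -0.42, that of *Plk2* -0.30, *Ccng1* 0.22, *Pmaip1* 0.39, *Bcl2* 0.25 and *Casp6* -0.19, and 0 members passed the adjusted threshold (limma). Cardiomyocyte, smooth muscle, endothelial and cushion mesenchyme markers were all present. Their summed levels overlapped between genotypes, as did those of the second heart field, epicardial, epithelial, erythroid, macrophage, neuronal and cycling lists. The neural crest and glia list was the exception, with 5 of 6 markers measured. Its sum was 81.8 to 115 CPM in control and 68.5 to 80.7 CPM in *Gata6STOP/+* pools. Such sums weigh abundant markers most. Every measured marker was higher in the smooth muscle (5), second heart field (6), epicardial (5), epithelial (2) and erythroid (6, median 0.48) lists. The other lists were mixed in direction. Larger log2 fold changes included *Isl1* at 0.47, *Postn* at -0.47 and *Stmn2* at 0.40, the last without overlap (limma adjusted P = 0.419, 0.433 and 0.333). *Foxd3*, *Epcam*, *Cdh1*, *Krt5* and *Trp63* had no row under these names in the expression table.

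Across the 42 members, no gene passed an adjusted P of 0.05, and neither did any of the 14732 genes (0%), also by edgeR quasi-likelihood. The smallest adjusted P was 0.186 among members and 0.097 in the table (limma). At an unadjusted P below 0.05 there were 5 members (11.9%), against 8.06% of all genes. By direction, 3 members were higher in *Gata6STOP/+* pools (4.17% of all genes) and 2 were lower (3.88% of all genes). The pools of the 2 genotypes did not overlap for 5 members (11.9%), against 8.47% of all genes, with 3 higher (background 4.31%) and 2 lower (background 4.16%). With sets of this size, these shares are close to the background. Fold changes were evenly split, 21 members being higher and 21 lower, with 49.8% of all genes higher. The median log2 fold change was -0.0028 over members and -0.00073 over all genes, and the median absolute value was 0.058 and 0.081. The 95% interval of the difference stayed within 1.5-fold either way for 39 members (92.9%; 83.5% of all genes), and within 1.2-fold for 21 (50%; 39.3% of all genes). The exceptions to the 1.5-fold bound were *Fas*, *Pmaip1* and *Bik*, which are among the members with the fewest reads.

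**Figure D1:**
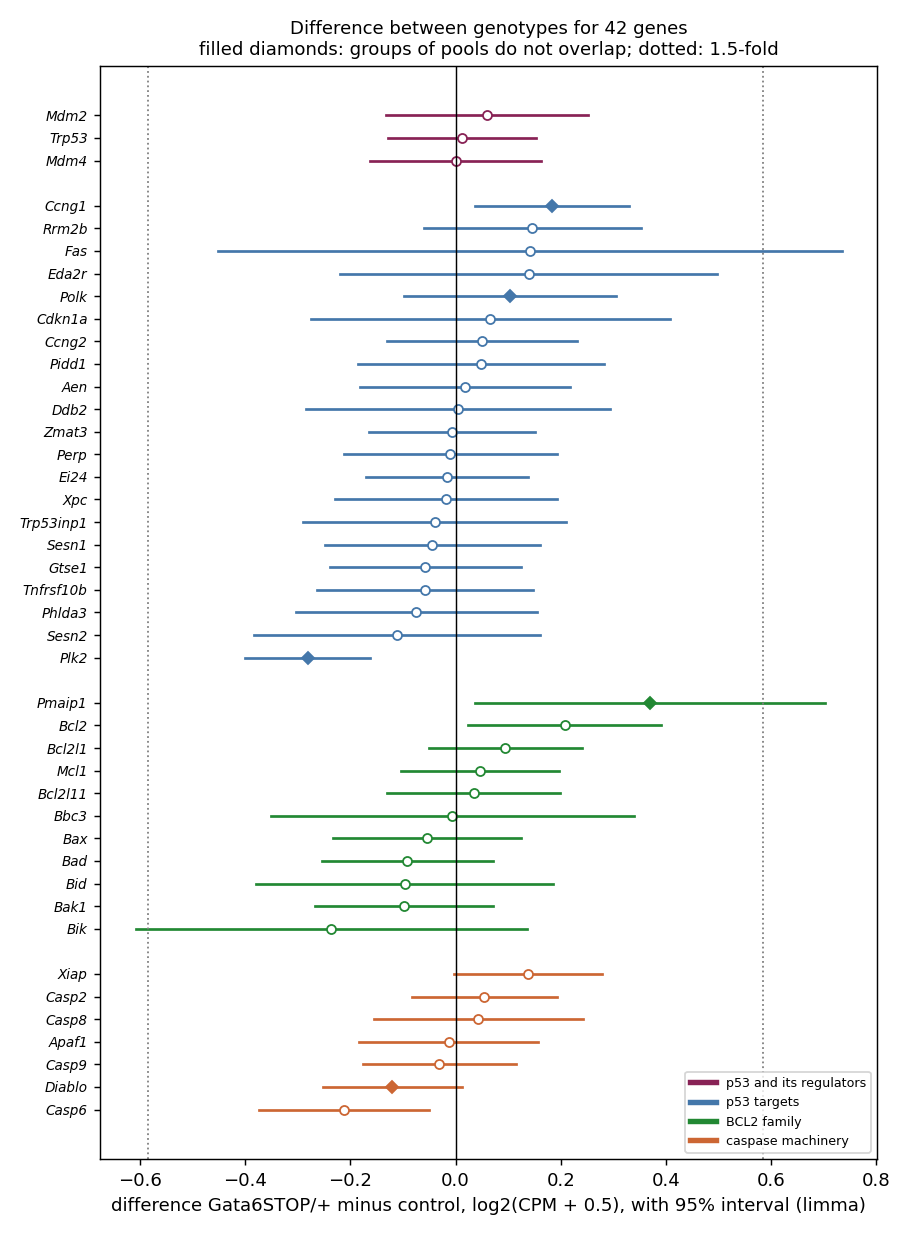
Differences between genotypes for the 42 genes (x axis, log2 fold change of CPM + 0.5, *Gata6STOP/+* minus control; lines, 95% limma intervals; dotted lines, 1.5-fold), grouped by role and sorted within each. Most intervals cross 0, and filled diamonds mark the 5 genes whose pools did not overlap: *Ccng1*, *Polk* and *Pmaip1* higher, *Plk2* and *Diablo* lower.

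Length-scaled levels place the pathway in the tissue. Per kilobase of merged exons, *Mcl1*, an anti-apoptotic BCL2 relative, had the highest control level at 54.2 CPM per kb. *Ccng1*, a cyclin that feeds back on the p53 and MDM2 loop, followed at 49.8 CPM per kb, and the polo-like kinase gene *Plk2* at 41.4 CPM per kb. *Bax* and *Bak1*, the pore formers, stood at 35.1 and 28.9 CPM per kb, close to *Trp53* itself at 25.0 CPM per kb. The anti-apoptotic *Bcl2* was far lower, at 3.27 CPM per kb, so *Mcl1* and *Bcl2l1* (11.7 CPM per kb) were the more abundant protective transcripts on this scale. TNF receptor family genes were near the bottom: *Fas* at 1.06, *Tnfrsf10b* at 2.77 and *Eda2r* at 0.783 CPM per kb, the lowest of all members. The BH3-only gene *Pmaip1*, at 0.921 CPM per kb, was also low. The order was much the same in *Gata6STOP/+* pools, in which *Ccng1* (56.7 CPM per kb) and *Mcl1* (56.0 CPM per kb) stood in the reverse order at the top.

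**Figure D2:**
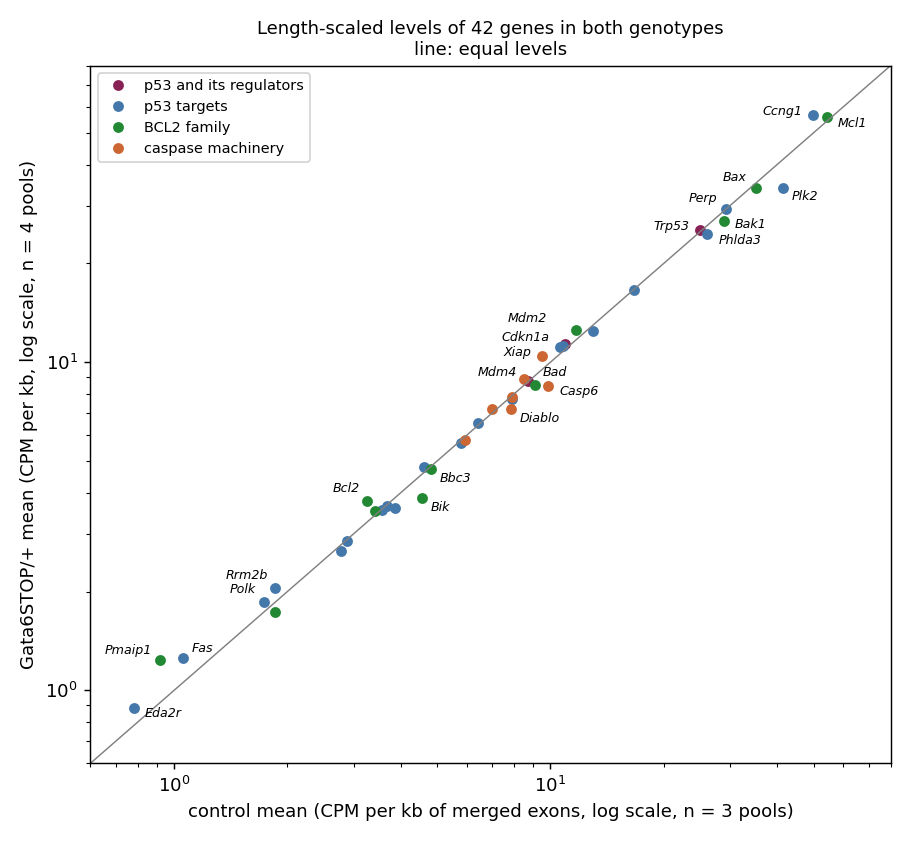
Mean level per kilobase of exon in control (x axis, 3 pools) and *Gata6STOP/+* OFT (y axis, 4 pools) for the 42 genes, both on log scales and coloured by role; the line marks equal levels. *Mcl1* and *Ccng1* lie at the top, *Eda2r*, *Pmaip1* and *Fas* at the bottom, and *Plk2* lies below the line and *Pmaip1* above it.

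Among p53 and its regulators, *Trp53* measured 105.7, 99.3 and 97.9 CPM in control replicates 3, 4 and 5, and 95.8, 109.4, 104.4 and 98.2 CPM in *Gata6STOP/+* replicates 1, 3, 4 and 5. Pools are listed in this order throughout. The groups overlapped fully, and the log2 fold change was 0.013 (SE 0.064, limma adjusted P = 0.977, 95% interval -0.13 to 0.15). *Mdm2* measured 55.6, 61.5 and 49.7 CPM in control and 52.0, 63.3, 57.0 and 59.4 CPM in *Gata6STOP/+* pools. Control replicate 5 was the lowest pool and *Gata6STOP/+* replicate 3 the highest, and the difference was 0.06 (SE 0.087, limma adjusted P = 0.895). *Mdm4* measured 124.5, 129.7 and 132.3 CPM in control and 137.0, 137.1, 129.97 and 112.8 CPM in *Gata6STOP/+* pools. The mutant values lay on both sides of the control range, and the difference was 0.00033 (SE 0.074, limma adjusted P = 0.999). The median of the 3 was 0.013. The sign of each of these differences, all close to 0, turned when single pools were left out.

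*Cdkn1a* encodes p21, the inhibitor of cyclin-dependent kinases through which p53 halts the cell cycle, and is a customary readout of p53 activity. It measured 41.95, 30.1 and 41.0 CPM in control and 29.1, 41.2, 45.1 and 42.9 CPM in *Gata6STOP/+* pools. In each genotype a single pool was low, control replicate 4 and *Gata6STOP/+* replicate 1, and the remaining 5 pools lay together. The difference was 0.066 (SE 0.155, limma adjusted P = 0.940), with a 95% interval of -0.28 to 0.41, and it was -0.086 without control replicate 4 and 0.21 without *Gata6STOP/+* replicate 1. Those pools were also the 2 lowest for 4.76% of members and 5.65% of all genes.

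*Plk2*, the gene of a polo-like kinase with a role in centriole duplication and the checkpoint response, had the lowest P-value of all members. It measured 187.4, 191.9 and 178.1 CPM in control pools (185.8 ± 7.05, SD, n = 3) and 157.6, 152.6, 148.6 and 152.2 CPM in *Gata6STOP/+* pools (152.7 ± 3.72, SD, n = 4). Every *Gata6STOP/+* pool was below every control pool, and the gap between groups was wider than the range within either. The log2 fold change was -0.28 (SE 0.054, limma adjusted P = 0.186; 95% interval -0.40 to -0.16). An edgeR likelihood ratio test on the recovered reads gave an adjusted P of 0.011 and DESeq2 one of 0.0011, and edgeR quasi-likelihood gave 0.206, so the call depended on the test and its settings. *Plk2* was the only member called by the first (0.713% of all genes) and by the second (0.597% of all genes). Its exact two-sided permutation P was 0.0571, the smallest that the 35 ways to part 7 pools allow. The summed level of neural crest and glia markers was also lower in every *Gata6STOP/+* pool, and its part in this difference, or in those of the other 4 members without overlap, was not tested. *Plk2* lies at chr13:110395046-110400844 on the plus strand (GRCm38).

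*Ccng1* (chr11:40748552-40755311, minus strand), with a match to the p53 consensus shown above, measured 171.6, 174.9 and 178.0 CPM in control and 184.5, 209.1, 188.0 and 214.7 CPM in *Gata6STOP/+* pools. All 4 *Gata6STOP/+* pools lay above the control pools, which differed little from each other. The log2 fold change was 0.18 (SE 0.066, limma adjusted P = 0.517). *Polk*, a DNA polymerase that copies past damaged bases, measured 9.16, 9.80 and 9.86 CPM in control and 10.6, 10.03, 10.05 and 10.7 CPM in *Gata6STOP/+* pools. Its groups did not overlap either, but the gap was small and the difference of 0.10 (SE 0.092) had a limma adjusted P of 0.812. *Rrm2b*, the p53-inducible subunit of ribonucleotide reductase, measured 16.1, 19.0 and 15.7 CPM in control and 18.2, 20.5, 17.8 and 18.5 CPM in *Gata6STOP/+* pools. Control replicate 4 exceeded 3 of the 4 mutant pools, and the difference was 0.15 (SE 0.093, limma adjusted P = 0.741). Without that control pool it was 0.23 (limma adjusted P = 0.531).

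The other p53 targets overlapped between genotypes. Among arrest and stress genes, *Ccng2*, *Sesn1*, *Sesn2* and *Gtse1* had log2 fold changes from -0.11 (*Sesn2*) to 0.051 (*Ccng2*). *Sesn1* and *Sesn2* encode sestrins, which restrain the growth kinase mTORC1. Repair genes of the nucleotide excision pathway were at -0.018 for *Xpc* and 0.0052 for *Ddb2*. TNF receptor family genes were *Fas* (0.14, SE 0.269), *Eda2r* (0.14, SE 0.163) and *Tnfrsf10b* (-0.058), and *Pidd1* was at 0.049. *Fas* was the noisiest member, with a coefficient of variation of 37.3% among *Gata6STOP/+* pools. *Perp*, which encodes a membrane protein of desmosomes, was at -0.0097, and *Phlda3*, an inhibitor of AKT signalling, at -0.075. *Zmat3*, *Aen*, *Ei24* and *Trp53inp1* lay between -0.039 (*Trp53inp1*) and 0.017 (*Aen*). Of the 21 p53 targets, 10 were higher and 11 lower, with a median of -0.0071. Counting *Mdm2*, *Bbc3*, *Pmaip1* and *Bax*, which p53 also induces, 12 of 25 were higher and 13 lower, with a median of -0.0059. The 10 members with a half-site had a median of 0.015, and the 23 matched members without one 0.00033.

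**Figure D3:**
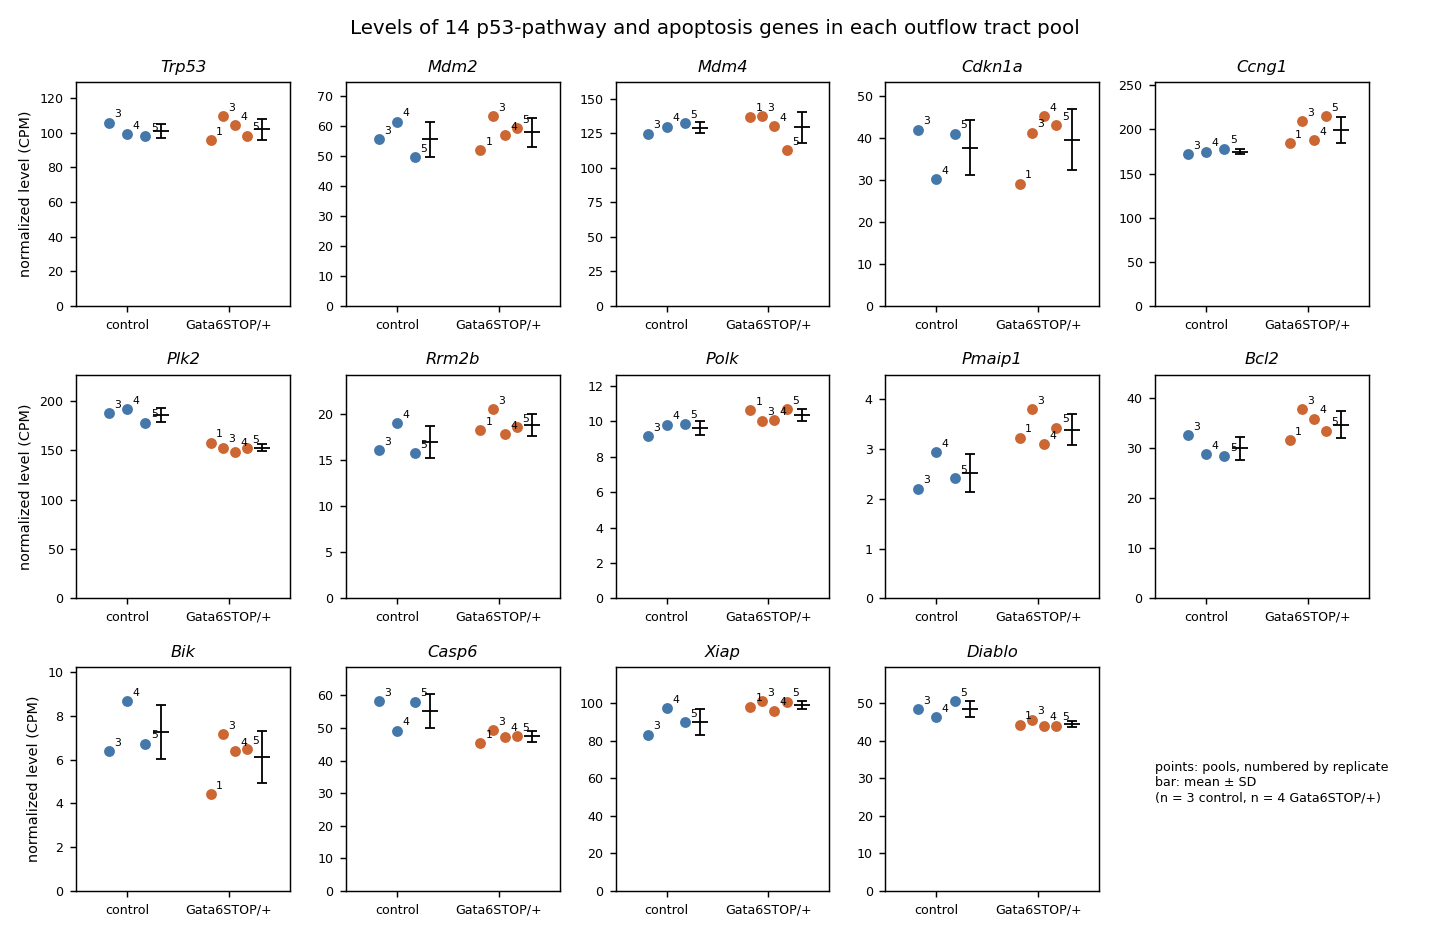
Level in every pool (y axes, CPM) of the 14 genes described singly, with 3 control and 4 *Gata6STOP/+* pools numbered by replicate and bars giving the mean ± SD. *Plk2* and *Diablo* are lower, and *Ccng1*, *Polk* and *Pmaip1* higher, in every *Gata6STOP/+* pool, while *Cdkn1a* has a single low pool in each genotype.

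In the BCL2 family, the largest difference was in *Pmaip1*, which encodes NOXA, the BH3-only partner of MCL1. It measured 2.21, 2.93 and 2.41 CPM in control and 3.23, 3.80, 3.09 and 3.43 CPM in *Gata6STOP/+* pools. The groups did not overlap, although control replicate 4 came close to *Gata6STOP/+* replicate 4. The log2 fold change was 0.37 (SE 0.151, limma adjusted P = 0.567) and rests on 43 to 118 reads in a pool. *Bbc3*, which encodes PUMA, the other BH3-only gene best known as a p53 target, was at -0.0059 (SE 0.156), with 10.2 ± 2.46 CPM in control (SD, n = 3) and 10.01 ± 0.906 CPM in *Gata6STOP/+* pools (SD, n = 4).

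*Bcl2*, the founding anti-apoptotic member, measured 32.6, 28.8 and 28.3 CPM in control and 31.5, 37.8, 35.8 and 33.4 CPM in *Gata6STOP/+* pools. Only *Gata6STOP/+* replicate 1 lay within the control range, below control replicate 3. The difference was 0.21 (SE 0.083, limma adjusted P = 0.557). The remaining anti-apoptotic genes, *Bcl2l1* (0.095, SE 0.066) and *Mcl1* (0.046, SE 0.068), were also on the higher side, with neither P below 0.05. *Bik*, a BH3-only gene, measured 6.38, 8.66 and 6.72 CPM in control and 4.42, 7.17, 6.39 and 6.48 CPM in *Gata6STOP/+* pools. Its groups overlapped, and the difference of -0.24 (SE 0.169, limma adjusted P = 0.773) was -0.10 without *Gata6STOP/+* replicate 1, its lowest pool. The pore formers *Bax* and *Bak1* were at -0.054 and -0.098, and the BH3-only genes *Bad*, *Bid* and *Bcl2l11* at -0.092, -0.097 and 0.035. In all, 5 of 11 genes were higher and 6 lower, with a median of -0.0059. *Bax* shares 192 exon bases on the same strand with *Gm45808*, and *Bak1*, *Bid* and *Bad* share exon bases with genes on the opposite strand, so some of their reads could be assigned either way.

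Among the caspase machinery, *Casp6*, an executioner caspase gene, measured 58.2, 49.2 and 58.1 CPM in control and 45.3, 49.4, 47.4 and 47.6 CPM in *Gata6STOP/+* pools. The groups touched only where *Gata6STOP/+* replicate 3 slightly exceeded control replicate 4. The log2 fold change was -0.21 (SE 0.074, limma adjusted P = 0.482). *Diablo*, which encodes the mitochondrial protein that inhibits XIAP, measured 48.4, 46.2 and 50.4 CPM in control and 44.2, 45.5, 44.0 and 43.9 CPM in *Gata6STOP/+* pools. Each *Gata6STOP/+* pool was below each control pool, the nearest being 45.5 against 46.2 CPM. The difference was -0.12 (SE 0.060, limma adjusted P = 0.655). *Diablo* shares 1193 exon bases on the same strand with *Gm49027*, which stood at 4.19 CPM in control and 4.96 CPM in *Gata6STOP/+* pools.

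*Xiap*, the caspase inhibitor, measured 83.2, 97.3 and 89.9 CPM in control and 98.3, 101.0, 96.1 and 100.8 CPM in *Gata6STOP/+* pools. A single control pool, replicate 4, reached the mutant range. The difference was 0.14 (SE 0.063, limma adjusted P = 0.629), and 0.082 without control replicate 3, the lowest pool. The initiator caspases *Casp8*, *Casp9* and *Casp2* (0.043, -0.031 and 0.055) and the apoptosome scaffold *Apaf1* (-0.013) overlapped between genotypes, with SEs from 0.063 to 0.090. Together 3 of 7 genes were higher and 4 lower, with a median of -0.013. For the 5 members with non-overlapping pools (*Ccng1*, *Polk*, *Plk2*, *Pmaip1* and *Diablo*), the exact two-sided permutation P was 0.0571 in each case, which cannot be lower in this design.

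Ratios of partner genes within a pool, chosen after the values were seen and given without a test, describe the same pools on a scale that library size does not affect. *Bcl2* over *Bax* was 0.543, 0.549 and 0.531 in control and 0.656, 0.695, 0.606 and 0.646 in *Gata6STOP/+* pools. *Bcl2* over *Bak1* was 0.423, 0.422 and 0.445 in control and 0.526, 0.561, 0.523 and 0.522 in *Gata6STOP/+* pools. Both ratios were higher in each *Gata6STOP/+* pool, including replicate 1, whose *Bcl2* level alone lay within the control range. *Xiap* over *Diablo* was 1.72, 2.10 and 1.78 in control and 2.22, 2.22, 2.19 and 2.30 in *Gata6STOP/+* pools, again without overlap. By contrast, *Mcl1* over its BH3-only partner *Pmaip1* was 64.3 to 80.05 in control and 50.8 to 63.8 in *Gata6STOP/+* pools, so it was lower in the mutant. *Mdm2* over *Trp53* overlapped, at 0.507 to 0.620 in control and 0.542 to 0.605 in *Gata6STOP/+* pools, and so did *Mdm4* over *Trp53*, at 1.178 to 1.351 and 1.150 to 1.429. The ratios compare pools only, since exon length differs between the genes of a pair. Most of these pairs hold a gene already seen to differ, and how often other pairs would separate was not computed. *Mcl1* and *Bcl2l1*, the more abundant protective transcripts, were not set against *Bax* or *Bak1*.

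**Figure D4:**
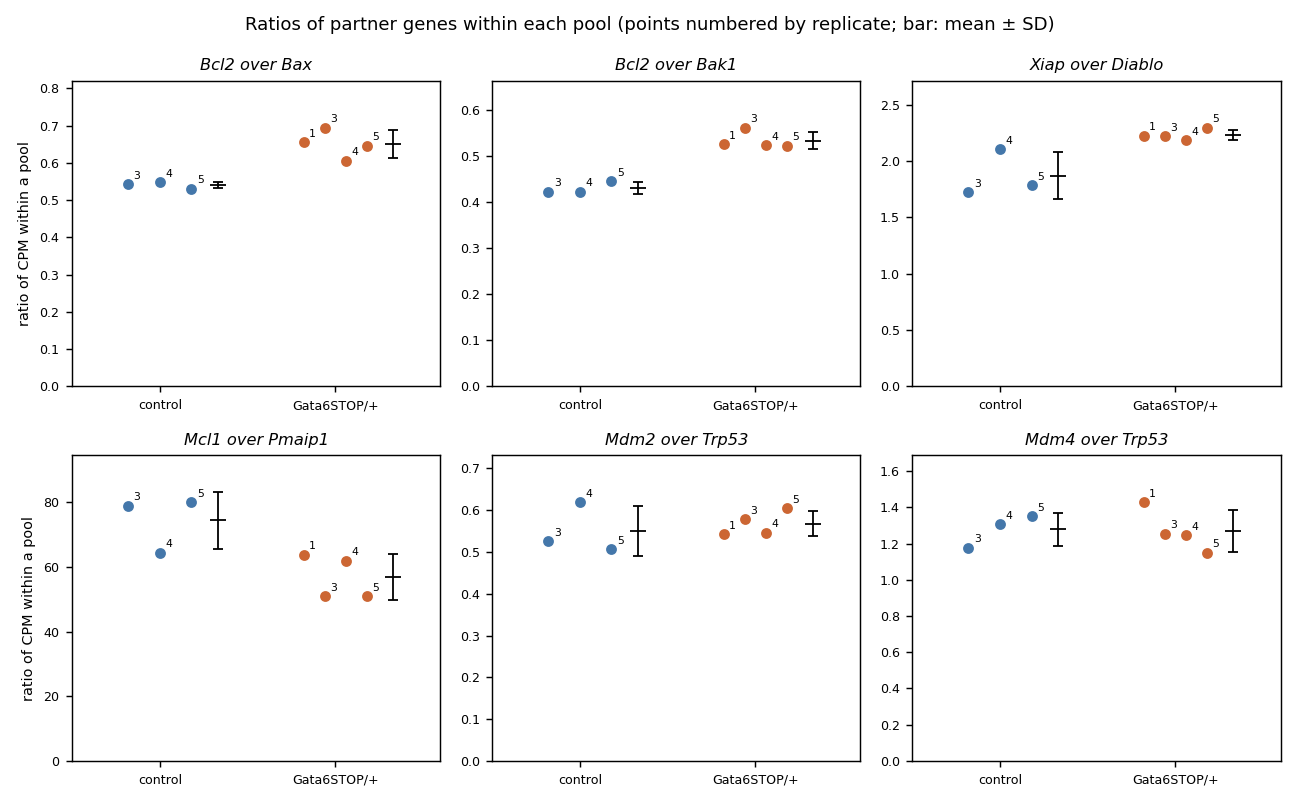
Ratios of CPM within each pool (y axes) for the 6 gene pairs, with 3 control and 4 *Gata6STOP/+* pools numbered by replicate and bars giving the mean ± SD. *Bcl2* over *Bax*, *Bcl2* over *Bak1* and *Xiap* over *Diablo* are higher and *Mcl1* over *Pmaip1* is lower in every *Gata6STOP/+* pool, whereas *Mdm2* and *Mdm4* over *Trp53* overlap.

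Other genes of the same pathways were read from a list of 70, of which 65 were measured, 27 being higher and 38 lower, with a median log2 fold change of -0.022 and 0 below an adjusted P of 0.05 (limma). At an unadjusted P below 0.05 there were 3 of the 65 (8.06% of all genes), and 3 had non-overlapping groups (8.47% of all genes). Among 34 measured p53 pathway genes, 20 were higher and 14 lower (49.8% of all genes being higher), with a median of 0.021. Groups did not overlap for 2 of these 34 (8.47% of all genes), *Atm* and *Chek2*, kinases that signal DNA double-strand breaks to p53. Both also had an unadjusted limma P below 0.05. *Atm* measured 18.4, 21.1 and 19.5 CPM in control and 27.4, 22.3, 23.7 and 27.1 CPM in *Gata6STOP/+* pools (log2 fold change 0.34, SE 0.094, limma adjusted P = 0.351). *Chek2* measured 12.2, 11.5 and 10.7 CPM in control and 12.8, 15.1, 14.8 and 15.3 CPM in *Gata6STOP/+* pools (0.32, SE 0.097, limma adjusted P = 0.401). Both were higher in each *Gata6STOP/+* pool than in any control pool, but neither passed the adjusted threshold. The third gene, *Trp53i11*, was lower in *Gata6STOP/+* pools (-0.30, limma adjusted P = 0.513), with overlapping groups. Of 31 measured apoptosis genes, 7 were higher and 24 lower, against 49.8% of all genes higher, with a median of -0.048, and 0 had an unadjusted P below 0.05. The only one of these without overlap was *Dffa*, the inhibitor of the caspase-activated DNase, at 36.1 ± 0.983 CPM in control (SD, n = 3) and 32.5 ± 1.84 CPM in *Gata6STOP/+* pools (SD, n = 4), a log2 fold change of -0.15. *Gdf15*, *Trp63*, *Trp73*, *Cdkn2a* and *Hrk* had no row under these names in the expression table.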

How the data were processed

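Stranded poly(A)+ libraries from 7 pools of E11.5 OFT were sequenced as 60-base single-end reads. The authors trimmed reads with Cutadapt, estimated gene counts with RSEM against the Ensembl annotation of GRCm38, retained genes that reached 1 CPM in 3 or more libraries and applied the TMM normalization of edgeR, and the deposited values are these CPM per the file headers and the values themselves. All 14732 rows met that filter, and 0 per-sample columns were left unused. Whether counting used strand is not given in the sources used here. Dividing each pool's CPM by the value of 1 read gave whole numbers for 100% of values (tolerance 0.05), and these recovered reads served the count tests.

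The main test was limma 3.58.1 (R 4.3.3) with a mean-variance trend on log2(CPM + 0.5) over all genes, with 3 control against 4 *Gata6STOP/+* pools, no covariate and Benjamini-Hochberg adjustment, and a threshold of 0.05. This scale understates the change of low genes. The fits were tested on simulated reads with known changes, and the motif search on random sequences with a planted exact full site. Planted sites with a mismatch or a base between the half-sites were not tried. Alternatives were other constants (0.1 and 2), a minimum mean of 5 CPM, median-of-ratios scaling, edgeR 4.0.16 (quasi-likelihood and likelihood ratio), DESeq2 1.42.0, a replicate block and leaving out each pool. Exact permutation tests used scipy 1.17.1. Groups came from the genotype labels. Nothing in the sources says whether embryos of a pool shared a litter. Gene positions and merged exon lengths came from the GRCm38 annotation, and 33 of 42 members matched a RefSeq promoter window by symbol.

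Members, role groups and the pathway and marker lists were chosen with earlier results of these data known. Values in every pool are given for *Trp53*, *Mdm2*, *Cdkn1a*, members with an unadjusted P below 0.05 or without overlap, and the 3 members of each group with the largest absolute log2 fold change at a mean of at least 1 CPM. Of the other pathway genes, those with both properties are named, and *Trp53i11* and *Dffa* were named after their values were seen. The precision of a level is limited by its reads (32 to 7384 a pool for members) and by the number of pools.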

Additional observations from a re-analysis of the deposited data

Results flagged for a closer look

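In the group of 4 *Gata6STOP/+* pools, the highest or lowest pool of each of the 42 members was compared with the others by Dixon's criterion at the 95% level, which flags about 1 group in 20 by chance. It marked 2 genes. *Tnfrsf10b*, a death receptor gene, was 16.4 CPM in *Gata6STOP/+* replicate 5, against 13.8 to 13.96 CPM in the other 3 pools, a gap of 0.939 of the range, and control pools lay between 14.4 and 15.9 CPM. *Diablo* was 45.5 CPM in *Gata6STOP/+* replicate 3, against 43.9 to 44.2 CPM in the other 3 pools, a gap of 0.834 of the range, and this pool was still below each control pool.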

How the results depend on the processing

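Counts of calls over the whole table depended on the test, going from 0 (limma, and edgeR quasi-likelihood, which gave 1177 genes at an unadjusted P below 0.05) to 1 with a constant of 0.1, 105 with the edgeR likelihood ratio test and 88 with DESeq2, and from 0 to 13 when 1 pool was left out (13 without control replicate 4, 2 without *Gata6STOP/+* replicate 3 and 1 without *Gata6STOP/+* replicate 1). Among members, the likelihood ratio test and DESeq2 each called 1, *Plk2*, and leaving out a pool called 0 in each case. Members at an unadjusted P below 0.05 numbered 2 to 6 when a pool was left out (2 with control replicate 5 omitted, 3 with control replicate 3 or *Gata6STOP/+* replicate 5 omitted), and members without overlap 5 to 11 (11 without control replicate 4). Shares of all genes under these omissions were not computed, so these counts have no background. With fewer pools, groups also separate more often by chance. *Plk2* stayed between -0.31 and -0.26 with each pool left out. Its unadjusted P was below 0.05 in 17 of 17 alternatives, that of *Ccng1* and *Casp6* in 15, of *Bcl2* in 13 and of *Pmaip1* in 7 of 16. With pools left out, the median log2 fold change ranged from -0.052 to 0.056 in the BCL2 family (-0.030 with a mean of at least 5 CPM, which drops *Pmaip1*), from -0.035 to 0.018 in the caspase machinery, from -0.022 to 0.046 for p53 and its regulators and from -0.015 to 0.022 for p53 targets. With each pool left out, *Trp53* ranged from -0.022 to 0.046, *Mdm2* from -0.018 to 0.14, *Mdm4* from -0.030 to 0.064 and *Cdkn1a* from -0.086 to 0.21, and the sign turned for *Trp53* in 2 of these fits, *Mdm2* in 1, *Mdm4* in 4 and *Cdkn1a* in 2. The cause was not tested. Of the other values for single genes under an alternative, 273 kept their direction and side of the threshold. Both genotypes have replicates 3, 4 and 5. Deviations of same-numbered pools showed no positive correlation (r = -0.046, -0.266 and -0.017 over 11627 genes), and the numbers were not taken as pairs. With so few pools, these values cannot exclude that same-numbered pools share a block. With a replicate block, which leaves *Gata6STOP/+* replicate 1 without weight, limma called 14 genes (0.095%), edgeR quasi-likelihood 13 (0.0882%) and the likelihood ratio test 118 (0.801%), with 0 members (*Plk2* had an adjusted P of 0.0787 in the likelihood ratio test with the block), *Mdm4* was at -0.029 in all of these fits, and *Gata6* at -0.42 passed the likelihood ratio test (adjusted P = 0.0164).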
